A study of Mus musculus with 12 samples.

Results

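The mouse mitochondrial genome holds 37 genes, and all of them were measured in the RNA-seq libraries of sorted Purkinje cells (PCs) and ventricular myocytes (VMs) from Ncam-1 wild-type (WT) and knockout (KO) hearts. Members were chosen by name alone, as every gene whose symbol starts with mt-, which took 37 of the 48526 genes in each count file, namely 13 mRNA genes, 2 rRNA genes and 22 tRNA genes. The study had 12 libraries, with 3 each of WT PC, KO PC, WT VM and KO VM. Adult mice of both genotypes carried the Cntn2-EGFP transgene, a bacterial artificial chromosome reporter that labels PCs, the myocytes of the fast ventricular conduction network. The reporter line was kept on CD1 and the Ncam-1-/- line, which lacks the neural cell adhesion molecule, on C57BL/6, so the crossed animals carried both backgrounds. Cells of digested ventricles took up TMRM at 50 nM over 15 minutes before the sort, RFP+GFP+ cells as PC and RFP+GFP- cells as VM. TMRM is a dye that enters mitochondria with a membrane potential, so all 4 groups were gated on a mitochondrial property. The RNA was amplified with a low-input kit before sequencing. The comparisons ask how PCs differ from VMs and what loss of Ncam-1 changes in each.

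Mitochondrial DNA is a small circle transcribed from both strands into long precursors. The tRNAs lie between most of the rRNAs and mRNAs, and cutting them out frees the other RNAs. The heavy-strand precursor yields both rRNAs, most mRNAs and most tRNAs, while the light-strand precursor yields mt-Nd6 and the remaining tRNAs. The mRNAs code for core subunits of respiratory complexes I, III, IV and V, on which the beating heart muscle depends for ATP.

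Gene counts per library ran from 13883427 to 42505705, and nuclear gene counts from 1532393 to 6761356. The targeted gene Ncam1 had 83, 34 and 116 counts in the WT PC libraries, 0, 1 and 1 in KO PC, 6, 0 and 9 in WT VM and 0 in each KO VM library. Defining cardiomyocyte markers summed to between 47868 and 63948 per 1000000 nuclear counts in all libraries. Several libraries stood apart. WT PC 2 had 63.9% of its read pairs unaligned, against 18.8% to 24.7% in the other 11. Counts of Cntn2, the gene behind the reporter, were 543, 231 and 922 in WT PC and 22, 39 and 677 in KO PC, against 2 to 7 in the VM libraries. KO PC 1 and KO PC 2 were therefore low for a Purkinje marker. The mitochondrial share, the mRNA shares and the calls that these PC libraries move are also given without them.

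With all 12 libraries, the mitochondrial genes past the threshold between PC and VM were mt-Tp, mt-Tc and mt-Tn, tRNAs encoded on the light strand. The call of mt-Tn is no support for PC over VM, as set out below. The sequences of these tRNAs are shown first. They are followed by mt-Tq, a light-strand tRNA that did not pass (edgeR adjusted p = 0.274 over both genotypes), by 3 heavy-strand tRNAs that had higher point estimates in KO libraries and by mt-Tt, the heavy-strand neighbour of mt-Tp. The sequences are DNA letters of the RNA, 5′ to 3′, from the GENCODE M21 transcripts on GRCm38, and the capitals mark the anticodon that a search for its letters with a paired stem around it found. In mt-Tp 2 positions passed that search and the first is marked. The light-strand genes lie on chromosome M at 15356 to 15422 (mt-Tp, proline), 5192 to 5257 (mt-Tc, cysteine), 5089 to 5159 (mt-Tn, asparagine) and 3772 to 3842 (mt-Tq, glutamine).
mt-Tp: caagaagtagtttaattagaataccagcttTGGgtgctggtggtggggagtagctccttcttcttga
mt-Tc: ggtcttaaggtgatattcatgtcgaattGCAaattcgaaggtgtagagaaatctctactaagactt
mt-Tn: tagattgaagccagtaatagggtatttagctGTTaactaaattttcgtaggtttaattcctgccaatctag
mt-Tq: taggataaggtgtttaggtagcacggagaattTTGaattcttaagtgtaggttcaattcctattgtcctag
The heavy-strand genes lie at 1 to 68 (mt-Tf, phenylalanine), 2676 to 2750 (mt-Tl1, leucine), 3845 to 3913 (mt-Tm, methionine) and 15289 to 15355 (mt-Tt, threonine).
mt-Tf: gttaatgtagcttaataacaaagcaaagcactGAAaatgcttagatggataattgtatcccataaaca
mt-Tl1: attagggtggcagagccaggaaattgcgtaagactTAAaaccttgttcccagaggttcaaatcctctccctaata
mt-Tm: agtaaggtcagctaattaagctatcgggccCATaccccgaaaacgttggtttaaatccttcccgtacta
mt-Tt: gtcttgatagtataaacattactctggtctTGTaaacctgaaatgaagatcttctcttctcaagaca

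Mitochondrial transcripts filled most of every library. In WT PC they took 84.1%, 91.3% and 84.2% of gene counts, in KO PC 88.7%, 87.7% and 79.0%, in WT VM 85.8%, 87.0% and 86.7%, and in KO VM 85.8%, 86.3% and 88.2%. The highest and the lowest share were both in PC libraries, and with all libraries each pair of groups overlapped. Once WT PC 2 is left out, both remaining WT PC libraries were below all 3 WT VM libraries, and without WT PC 2, KO PC 1 and KO PC 2 the 3 PC libraries left, at 84.1%, 84.2% and 79.0%, were below all 6 VM libraries, at 85.8% to 88.2%. Means were 86.5% ± 4.11 (SD, n = 3) in WT PC, 85.1% ± 5.33 in KO PC, 86.5% ± 0.612 in WT VM and 86.7% ± 1.26 in KO VM. The differences of means were -0.0071 percentage points for WT PC minus WT VM, -1.62 for KO PC minus KO VM, -1.40 for KO PC minus WT PC and 0.213 for KO VM minus WT VM, and no test was run on these sums. Each of the 4 changed sign with 1 library left out, from -2.38 (without WT PC 2) to 1.20 (without WT PC 1), from -3.41 (without KO PC 1) to 1.44 (without KO PC 3), from -3.19 (without KO PC 1) to 1.66 (without KO PC 3) and from -0.502 (without KO VM 3) to 0.692 (without KO VM 1) in that order. The 95% Wilson intervals of single libraries were 0.0220 to 0.0355 percentage points wide, and they cover counting error only. In these sorted populations, fewer cells of a type and less RNA per cell cannot be told apart.

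The rRNAs made up most of this share. mt-Rnr1, the 12S RNA of the small mitochondrial ribosomal subunit (chromosome M, 70 to 1024), and mt-Rnr2, the 16S RNA of the large subunit (1094 to 2675), together took 63.3% to 78.1% of gene counts. The 13 mRNAs took 12.2% to 15.7%. Within the mitochondrial counts, mRNAs had 15.5% ± 1.02 in WT PC, 17.4% ± 2.27 in KO PC, 15.1% ± 0.763 in WT VM and 15.8% ± 0.341 in KO VM, and all groups overlapped. With the 2 rRNAs left out of numerator and denominator, the mitochondrial genes still held 42.7% to 60.0% of counts. The tRNAs were a trace, with 357 to 2725 counts in all per library.

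**Figure D1:**
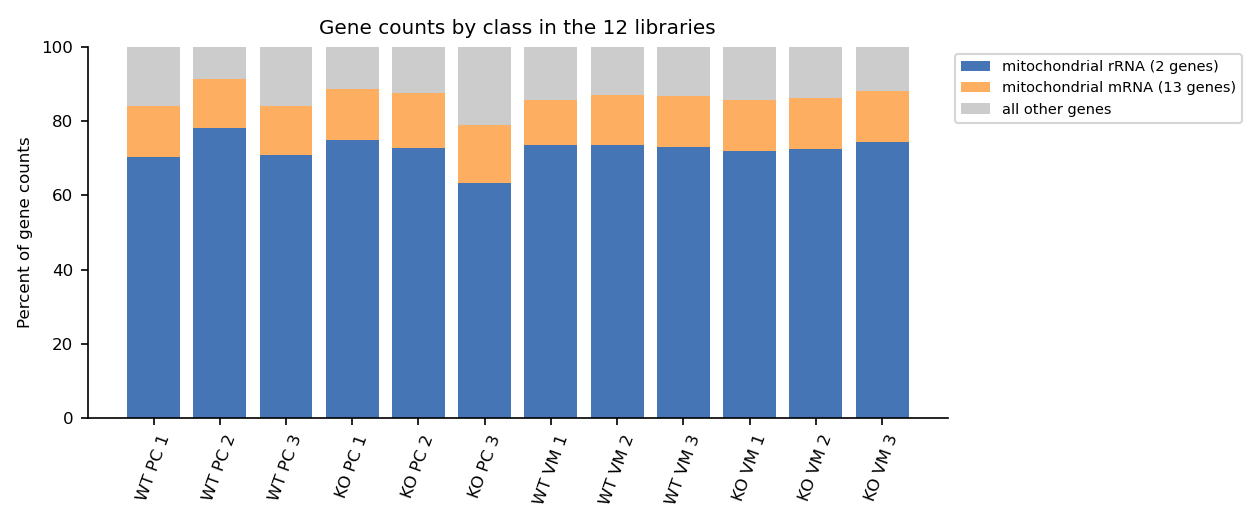
Share of gene counts (%, vertical axis) in mitochondrial rRNAs, mitochondrial mRNAs and all other counts, stacked for each of the 12 libraries. The rRNAs form the bulk of every bar and the remainder is largest in KO PC 3, whose mitochondrial share is 79.0%, and smallest in WT PC 2, at 91.3%.

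The ratio of mt-Rnr2 to mt-Rnr1 counts was 2.39, 3.53 and 2.95 in WT PC, 2.11, 2.66 and 2.76 in KO PC, 2.37, 2.64 and 3.38 in WT VM and 2.23, 2.79 and 2.80 in KO VM. Each group spanned much of the same range, and every pair of groups overlapped. Group means were 2.96 ± 0.568, 2.51 ± 0.350, 2.80 ± 0.521 and 2.61 ± 0.326 (SD, n = 3) in that order. Two-sided exact permutation tests on the log2 ratio gave p = 0.7 for WT PC against WT VM, 0.5 for KO PC against KO VM, 0.4 for KO PC against WT PC and 0.6 for KO VM against WT VM, where 3 against 3 cannot go below 0.1. Permuting within genotype gave p = 0.935 for PC against VM, and permuting within cell type gave p = 0.245 for KO against WT, both exact.

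Among the mRNAs, mt-Co1 had the highest level per length in the gene counts, and the nuclear copies described below limit this order. Dividing each gene's share of mitochondrial counts by its length gave a mean over the 12 libraries of 4.23% per kilobase for mt-Co1, the catalytic subunit of complex IV. It was followed by mt-Nd1 of complex I at 2.14% and mt-Cytb, the subunit of complex III, at 1.76%. mt-Nd2 had 1.33%, mt-Nd5 1.23% and mt-Nd4 0.987%, all of complex I. mt-Nd6, the complex I subunit of the light strand, had 0.594% and mt-Nd3, also of complex I, 0.121%. Each of these genes but one was above the next in 11 or 12 libraries, the exception being mt-Nd2, above mt-Nd5 in 10. On the same scale mt-Rnr2 had 38.7% and mt-Rnr1 23.9%.

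The 5 other mRNAs, which lie between mt-Co1 and mt-Nd4, had far lower levels. mt-Co3 and mt-Co2 of complex IV had 0.00451% and 0.00385% of mitochondrial counts per kilobase, mt-Atp6 and mt-Atp8 of complex V 0.00366% and 0.00140%, and mt-Nd4l of complex I 0.00102%. Their order was less firm, since mt-Co3 was above mt-Co2 in 10 libraries, mt-Co2 above mt-Atp6 in 8 and mt-Atp8 above mt-Nd4l in 9. In counts, mt-Co2 had 321 to 954 per library, mt-Atp6 256 to 1010, mt-Co3 282 to 1336, mt-Atp8 22 to 112 and mt-Nd4l 21 to 87, while mt-Co1 had 463116 to 2257306. mt-Nd3 lies among them, between mt-Co3 and mt-Nd4l (chromosome M, 9459 to 9806), at its higher level of 0.121% per kilobase. These genes are transcribed within the same heavy-strand precursor as mt-Co1.

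**Figure D2:**
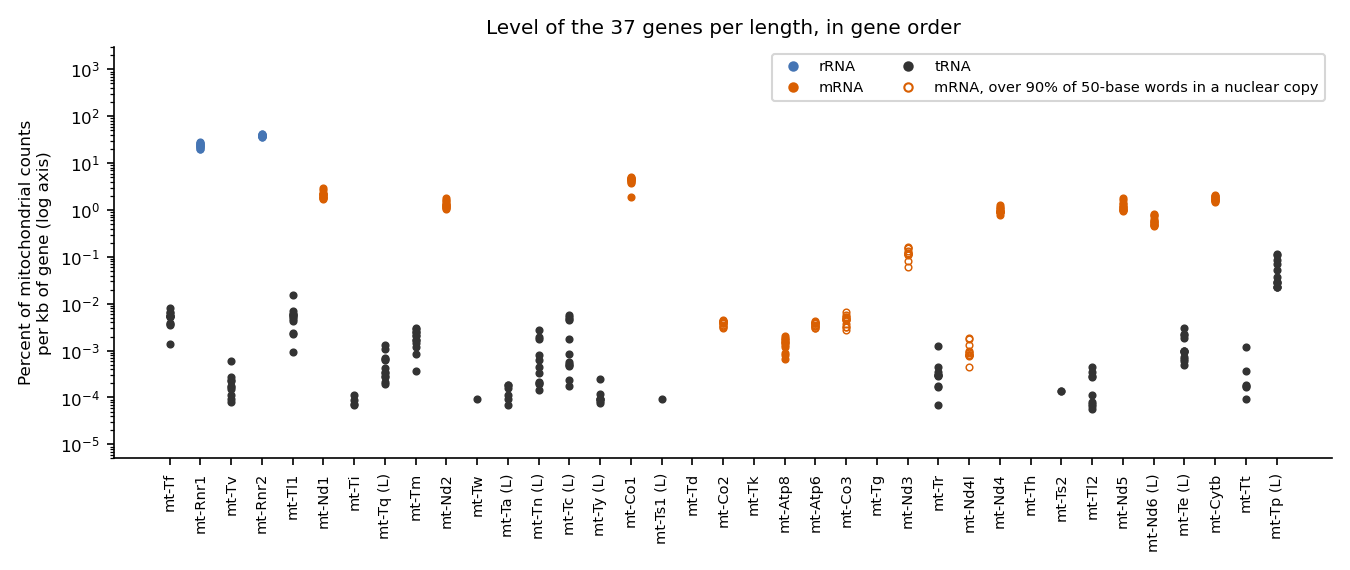
Level of each mitochondrial gene (% of mitochondrial counts per kilobase, log axis) in gene order, 1 point per library, with (L) marking light-strand genes, open points genes that share over 90% of their 50-base words with other transcripts, and libraries at 0 not drawn. mt-Co2, mt-Atp6, mt-Co3 and mt-Nd4l lie together at the bottom of the mRNAs with mt-Atp8, whose points are filled.

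Near-identical nuclear copies bear on these levels. Of the 50-base words of each gene, the length of 1 sequenced read, 100% were also found in other annotated transcripts for mt-Co2, 99.9% for mt-Co3, 99.5% for mt-Atp6, 98.8% for mt-Nd4l, 98.0% for mt-Nd3, 62.2% for mt-Nd4 and 51.1% for mt-Co1. The share was 8.19% for mt-Nd2, 7.61% for mt-Nd5, 1.04% for mt-Rnr2 and 0.0% for all other members. Pseudogenes on chromosome 1, minus strand, between 24611535 and 24616197, hold the copies of mt-Co2, mt-Atp6, mt-Co3, mt-Nd3, mt-Nd4l and mt-Nd4 and, in Gm29216, 430 words of mt-Co1. Gm13340 on chromosome 2 shares 411 words with mt-Co1, and chromosome 2 also holds a partial copy of mt-Co2 (Gm13341) and that of mt-Nd2 (Gm13339). The words of mt-Nd5 were shared with Gm11407 on chromosome 4 and Gm4076 on chromosome 13, and those of mt-Rnr2 with Gm20594 on chromosome 6. Without gaps, mt-Co2 matched Gm28661 at 681 of 681 bases, mt-Co3 matched Gm28437 at 783 of 783, mt-Atp6 matched Gm10925 at 678 of 678 and mt-Nd4l matched Gm10222 at 294 of 294. mt-Nd3, whose counts of 3448 to 14487 were far above those of its neighbours, matched Gm28438 at 344 of 345 bases. The substitution is T3C, counted from 1 at the first base of the transcript, with the mt-Nd3 base first. The first 50 bases, 1 read length, of both transcripts are shown with that base in capitals, since a read must cover it to be told apart between the 2 genes over this alignment.
mt-Nd3: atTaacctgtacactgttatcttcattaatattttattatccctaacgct
Gm28438: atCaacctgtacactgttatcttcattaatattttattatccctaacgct
Counts assigned to the copies did not keep 1 relation to those of the mitochondrial genes. Gm28661 had 1017 to 2820 against 321 to 954 for mt-Co2, and Gm28437 448 to 1543 against 282 to 1336 for mt-Co3. Gm28438 had 138 to 540, far fewer than mt-Nd3, and Gm28439, which matched mt-Nd4 at 876 of 876 bases, had 259 to 1071 against 151989 to 471652 for mt-Nd4. mt-Atp8 was as low and shared no word with any annotated transcript. It lies between mt-Co2 and mt-Atp6. On chromosome 1 the copy of mt-Atp6 ends at 24614651 and that of mt-Co2 starts at 24614885. By gene order a copy of mt-Atp8 would lie between these positions. Sequence outside annotated transcripts, this stretch included, was not searched here. Levels of mt-Co2, mt-Co3, mt-Atp6, mt-Atp8, mt-Nd3 and mt-Nd4l are therefore uncertain, and those of mt-Nd4 and mt-Co1 in part. Per unshared kilobase, as a share of the mRNA counts, mt-Co1 had 55.9%, mt-Nd4 17.0% and mt-Nd1 14.2%. On that scale mt-Cytb had 11.6%, mt-Nd2 9.56% and mt-Nd5 8.62%. mt-Nd4 was thus next after mt-Co1, while per full length it was below mt-Nd5, so the order depends on the copies.

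Among shares of the mRNA counts, those of complex I and complex IV did not overlap between PC and VM within either genotype. Complex I mRNAs had 47.6%, 68.0% and 50.2% of the 13 mRNA counts in WT PC, 43.9%, 45.0% and 48.8% in KO PC, 44.0%, 41.2% and 43.3% in WT VM and 43.1%, 41.7% and 40.2% in KO VM. Within each genotype every PC library was above every VM library, and WT PC 2 was the highest of all. Complex IV mRNAs mirrored this, with 38.7%, 20.2% and 36.7% in WT PC, 43.2%, 42.5% and 39.1% in KO PC, 43.6%, 46.9% and 42.4% in WT VM and 43.6%, 46.6% and 47.5% in KO VM. Each KO PC library was above each WT PC library. Without WT PC 2, and without WT PC 2, KO PC 1 and KO PC 2 together, complex I in the PC libraries left (47.6% to 50.2% in the second case) stayed above, and complex IV (36.7% to 39.1%) below, every VM library of the same genotype. Nearly all of the complex IV counts came from mt-Co1, and the 2 shares are not independent, since all 13 mRNAs sum to 100%. Complex III, that is mt-Cytb, kept to 11.7% to 14.3% in all libraries, and complex V to 0.0147% to 0.0193%. Complex V was higher in each WT PC library than in each WT VM and each KO PC library, while KO PC and KO VM overlapped. Nearly all words of mt-Co2, mt-Co3 and mt-Atp6 are shared with nuclear copies, so the complex IV and V shares hold only uniquely assigned counts. These sums were not tested.

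mt-Co1 had 38.6%, 20.1% and 36.6% of mRNA counts in WT PC, 43.2%, 42.5% and 39.1% in KO PC, 43.6%, 46.8% and 42.3% in WT VM and 43.6%, 46.6% and 47.5% in KO VM. WT PC 2 was far below the other 11. In the edgeR fit its log2 fold change in PC over VM was -0.52 (SE 0.21, adjusted p = 0.744) in WT, -0.22 (SE 0.20, adjusted p = 0.810) in KO and -0.36 (SE 0.15, adjusted p = 0.341) over both genotypes, none past the threshold of 0.05. mt-Nd5 showed the opposite order, with 14.7%, 23.1% and 16.5% in WT PC, 13.4%, 13% and 15.2% in KO PC, 12.8%, 11.4% and 12.2% in WT VM and 13.4%, 11.8% and 12% in KO VM. The WT groups did not overlap and the KO groups did. Its log2 fold change was 0.73 (SE 0.38, adjusted p = 0.799) in WT and 0.06 (SE 0.16, adjusted p = 0.946) in KO by edgeR. With 1 library left out the WT value ran from 0.09 (without WT PC 2) to 0.98 (without WT PC 1). The remaining complex I mRNAs had ranges over the 12 libraries of 10.8% to 19.3% for mt-Nd1, 7.10% to 11.6% for mt-Nd2, 7.71% to 10.9% for mt-Nd4 and 0.150% to 0.340% for mt-Nd3. WT PC 2 was highest for mt-Nd1, mt-Nd2 and mt-Nd4 and lowest for mt-Nd3.

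mt-Nd6 is the single mRNA of the light strand (chromosome M, 13552 to 14070). Its share of mRNA counts was 2.01%, 2.96% and 2.48% in WT PC, 1.85%, 1.75% and 2.06% in KO PC, 1.72%, 1.54% and 1.73% in WT VM and 1.85%, 1.65% and 1.58% in KO VM. WT PC lay above WT VM without overlap, while the KO groups overlapped. Means were 2.48% ± 0.476 in WT PC, 1.89% ± 0.155 in KO PC, 1.67% ± 0.111 in WT VM and 1.70% ± 0.144 in KO VM (SD, n = 3). On the log2 scale WT PC exceeded WT VM by 0.56 (exact permutation p = 0.1, the smallest that 3 against 3 can give) and KO PC exceeded KO VM by 0.16 (exact permutation p = 0.3). Over both genotypes, with labels exchanged within genotype, the difference was 0.36 with an exact permutation p of 0.015, which became 0.09 after adjustment over the 6 tests of this value. KO minus WT was -0.38 in PC (exact permutation p = 0.2) and 0.02 in VM (exact permutation p = 0.9). The differences without WT PC 2 were 0.42 for WT PC over WT VM, 0.29 for PC over VM and -0.25 for KO PC minus WT PC. mt-Nd5 lies opposite mt-Nd6 and overlaps its end, and mt-Nd6 counts stayed at 12.9% to 15.0% of mt-Nd5 counts in every library. Whether the counting used strand is not given in the sources used here. Without strand, reads of a light-strand gene and of the precursor opposite it cannot be told apart.

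**Figure D3:**
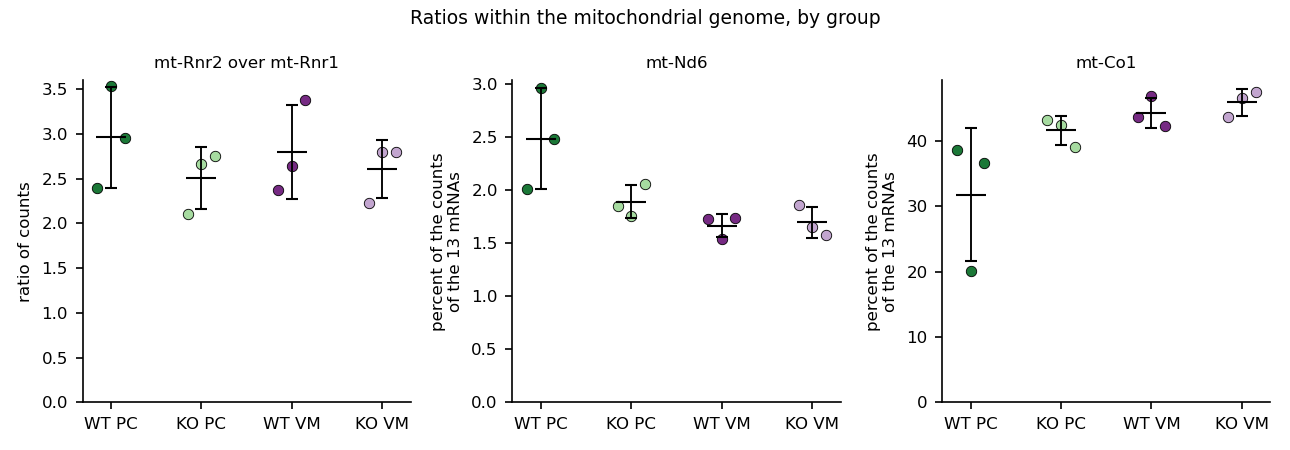
The mt-Rnr2 to mt-Rnr1 count ratio, the mt-Nd6 share and the mt-Co1 share of mRNA counts (%), 1 point per library with group mean ± SD (n = 3). The rRNA ratio overlaps in all groups, mt-Nd6 is highest in WT PC (mean 2.48%), and WT PC 2 sits alone at 20.1% for mt-Co1.

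With all libraries in the fit, the mitochondrial genes called between PC and VM by edgeR were light-strand tRNAs, mt-Tp and mt-Tc in KO, and these 2 with mt-Tn over both genotypes, all higher in PC. mt-Tn is named here without weight, for the reason given with its counts. Per 1000000 mitochondrial counts, the 8 light-strand tRNAs together had 66.1, 20.3 and 83.4 in WT PC, 53.4, 37.9 and 79.2 in KO PC, 17.1, 25.7 and 20.5 in WT VM and 22.1, 16.4 and 16.0 in KO VM. WT PC 2 fell among the VM libraries, and the other 5 PC libraries were above all 6 VM libraries. Means were 56.6 ± 32.6, 56.9 ± 20.9, 21.1 ± 4.35 and 18.2 ± 3.40 (SD, n = 3). In every library most of these counts were of mt-Tp. Without mt-Tp the light-strand tRNAs had 7.19, 2.13 and 6.88 in WT PC and 5.52, 2.54 and 7.59 in KO PC. They had 1.74, 1.05 and 0.772 in WT VM and 2.35, 1.03 and 1.13 in KO VM. KO VM 1 was thus above WT PC 2. The 14 heavy-strand tRNAs together had 10.2, 2.0 and 7.20 in WT PC, 10.1, 10.6 and 12.8 in KO PC, 10.2, 5.67 and 4.90 in WT VM and 20.1, 9.31 and 9.83 in KO VM, and overlapped in each pair of groups. Light-strand genes thus gave 86.6%, 91.0% and 92.0% of tRNA counts in WT PC, 84.1%, 78.1% and 86.1% in KO PC, 62.5%, 81.9% and 80.7% in WT VM and 52.3%, 63.8% and 62.0% in KO VM. Within each genotype all PC libraries were above all VM libraries, WT PC 2 among them, and each KO PC library was below each WT PC library.

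mt-Tp, the proline tRNA, gave most tRNA counts, 70.5% on average. Its counts were 2104, 291 and 1922 in WT PC, 590, 556 and 1152 in KO PC, 299, 518 and 512 in WT VM and 252, 223 and 291 in KO VM. Scaled by edgeR's TMM factors (trimmed mean of M values), the normalized counts were 917, 568 and 1111 in WT PC, 1037, 702 and 770 in KO PC, 280, 488 and 379 in WT VM and 356, 286 and 337 in KO VM. On this scale every PC library was above every VM library. Per 1000000 mitochondrial counts the WT PC 2 value of 18.2 (95% Wilson interval 16.2 to 20.4) fell inside the VM range of 14.9 to 24.7, and the other 5 PC libraries, at 35.4 to 76.5, did not. The log2 fold change in PC over VM was 1.35 (SE 0.17, edgeR adjusted p = 0.0019) in KO and 1.15 (SE 0.32, edgeR adjusted p = 0.551) in WT. Without WT PC 2, the WT value was 1.39 with an adjusted p of 0.0067. Over both genotypes it was 1.27 (SE 0.18, edgeR adjusted p = 0.0015).

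mt-Tc was lower in counts and larger in fold. It had 139, 6 and 88 counts in WT PC, 37, 18 and 49 in KO PC, 11, 7 and 3 in WT VM and 4, 5 and 3 in KO VM. As normalized counts, WT PC had 60.6, 11.7 and 50.8 and KO PC 65.0, 22.7 and 32.7, against 10.3, 6.59 and 2.22 in WT VM and 5.66, 6.42 and 3.47 in KO VM. PC and VM did not overlap, but WT PC 2 was close to the highest VM library, and per 1000000 mitochondrial counts its 0.375 (95% Wilson interval 0.172 to 0.819) was below the 0.564 of WT VM 1. The log2 fold change was 2.90 (SE 0.58, edgeR adjusted p = 0.0262) in KO, 2.71 (SE 0.77, edgeR adjusted p = 0.572) in WT, and 2.82 (SE 0.47, edgeR adjusted p = 0.0052) over both genotypes. Without WT PC 2 the WT value was 3.14 with an adjusted p of 0.0067. The call in KO was lost without KO PC 1 and without any one KO VM library, with adjusted p from 0.0232 to 0.132 over the libraries left out.

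mt-Tn lies between mt-Ta and mt-Tc on the same strand. Its counts were 69, 7 and 31 in WT PC, 7, 5 and 22 in KO PC, 3, 3 and 0 in WT VM and 3, 2 and 2 in KO VM. No VM library had more than 3 counts and every PC library had at least 5. Against a floor of 3 counts per VM library, the mean normalized count was at least 7.85-fold higher in WT PC, at least 2.88-fold higher in KO PC and at least 4.89-fold higher in PC over both genotypes. The edgeR adjusted p was 0.567 in WT, 0.451 in KO and 0.0413 over both genotypes, and in WT it was 0.0445 without WT PC 2. This call depended on the setting, since it held in 9 of 20 alternatives over both genotypes. mt-Tn reached the mean normalized count above 5 needed for testing through the PC libraries. Its folds and calls are therefore no support for PC over VM.

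The other light-strand tRNAs had few counts. mt-Tq had 27, 7 and 12 in WT PC, 6, 4 and 15 in KO PC, 6, 4 and 4 in WT VM and 3, 2 and 4 in KO VM, with a log2 fold change over both genotypes of 1.25 (SE 0.48, edgeR adjusted p = 0.274). mt-Te, the glutamate tRNA next to mt-Nd6, had 16, 11 and 38 in WT PC, 16, 10 and 33 in KO PC, 13, 7 and 13 in WT VM and 20, 6 and 13 in KO VM, with a log2 fold change of 0.53 (edgeR adjusted p = 0.706). The groups overlapped for mt-Te. mt-Ta had at most 4 counts in a library, mt-Ty at most 2 and mt-Ts1 at most 1, too few to compare. On the heavy strand, mt-Tt had 4, 2 and 3 counts in WT PC, 3, 1 and 13 in KO PC and 0 in all 6 VM libraries. It lies directly beside mt-Tp on the opposite strand. Most of these values are at or under 3 counts, and no fold is given.

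**Figure D4:**
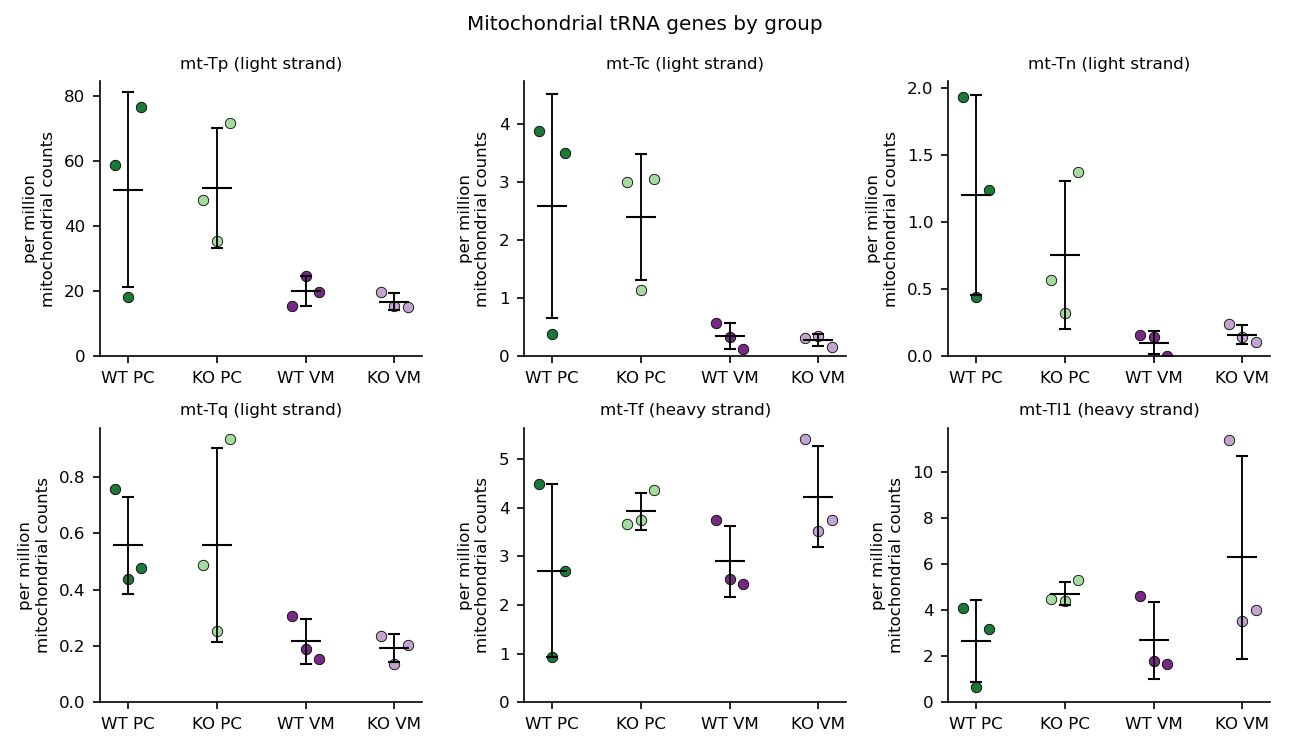
Counts per 1000000 mitochondrial counts of mt-Tp, mt-Tc, mt-Tn, mt-Tq, mt-Tf and mt-Tl1 in the 4 groups, 1 point per library with mean ± SD (n = 3). For mt-Tp the PC libraries lie at 35.4 to 76.5 apart from WT PC 2 at 18.2, which falls among the VM libraries at 14.9 to 24.7, while mt-Tf overlaps in every group.

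In counts of calls, 23 of the 37 members passed the filter on low counts (a mean normalized count above 5), namely both rRNAs, all 13 mRNAs and 8 tRNAs, and 14 tRNAs did not. A member can pass through the group in which it is high, as mt-Tn and mt-Tq did, which were not tested in VM alone. The call of mt-Tn is therefore named but is no support for PC over VM. For WT PC against WT VM, 0 of the 23 were called by edgeR at an adjusted p under 0.05, where 0.11% of 11822 genes were called. At an unadjusted p under 0.05 there were 3 higher (mt-Tp, mt-Tc and mt-Tn) and 1 lower (mt-Co1), against 6.36% of all genes. DESeq2 called 1 of 23, mt-Tn, among 115 of 11788 genes. For KO PC against KO VM, 2 of 23 were called, both higher, against 0.872% of 10779 genes, and 3 against 9.7% passed at an unadjusted p. Over both genotypes mt-Tp and mt-Tc were called, both higher, besides mt-Tn, where 1.28% of 11323 genes were called, and 5 members passed unadjusted, where 11.7% of genes did. mt-Tp and mt-Tc also had higher normalized counts in every PC library than in every VM library, as 1.4% of genes did. The same held for mt-Tn, which is no support for the reason given above. Lower in every PC library were 0 members, and 55 of 11323 genes. The comparison over both genotypes uses the same libraries as the other 2 and was added after the data had been seen.

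The median log2 fold change in PC over VM was 0.33 over the 23 members and -0.00 over all genes in WT, and 0.01 against 0.01 in KO. In WT 16 of 23 point estimates were above 0, and in KO 13 of 23. Without WT PC 2 the WT median was -0.07 over the members with 9 of 23 above 0, so that library set the direction. The rRNAs showed no call, with log2 fold changes of -0.07 (SE 0.20, edgeR adjusted p = 0.943) for mt-Rnr1 and -0.05 (SE 0.22, edgeR adjusted p = 0.967) for mt-Rnr2 over both genotypes. With WT PC 2, KO PC 1 and KO PC 2 left out together, 6 of 24 members were called among 332 of 11555 genes. mt-Tp (1.34), mt-Tc (2.98) and mt-Tn were higher in PC, and mt-Rnr1 (-0.57, edgeR adjusted p = 0.040), mt-Rnr2 (-0.58, edgeR adjusted p = 0.0202) and mt-Co1 (-0.60, edgeR adjusted p = 0.0109) were lower.

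Markers of 4 other cell types moved with the same contrast. Summed per 1000000 nuclear counts, the 6 fibroblast markers had 229 to 559 in PC and 21.7 to 127 in VM, the 6 endothelial markers 167 to 561 and 21.7 to 166, the 6 leukocyte markers 80.0 to 196 and 3.8 to 41.7, and the 6 smooth muscle and pericyte markers 346 to 880 and 82.2 to 321. All 4 sums were higher in every PC library. The 4 haemoglobin genes had 0 to 1058 in PC, highest in WT PC 2, and 0 to 43.8 in VM, so PC and VM overlapped. The 4 Schwann markers overlapped too, at 0 to 2.55 in PC and 0 to 3.43 in VM. The 6 Purkinje markers had 195 to 483 in WT PC, 54.2 to 329 in KO PC and 11.5 to 18.8 in VM. The part of these cells, or of amplification, in the light-strand tRNA counts was not tested.

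**Figure D5:**
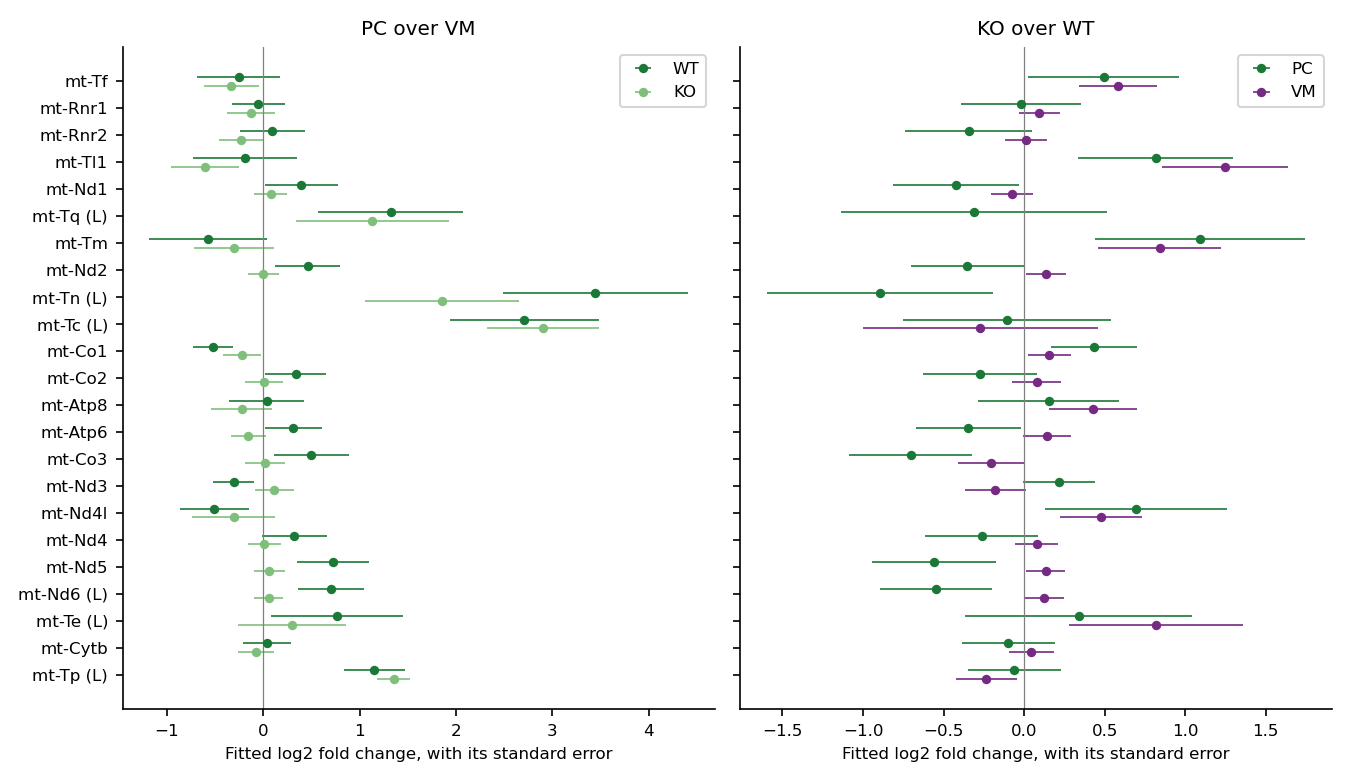
Fitted log2 fold changes with standard errors of the 23 tested mitochondrial genes, PC over VM in WT and in KO (left) and KO over WT in PC and in VM (right), with 0 marked. mt-Tp, at 1.15 in WT and 1.35 in KO, and mt-Tc, at 2.71 and 2.90, lie above 0 in both genotypes. The fitted value of mt-Tn is set against VM libraries at or under 3 counts and is not a measured fold, and apart from it and mt-Tq the other values of PC over VM lie between -0.60 and 0.76.

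No mitochondrial gene passed the threshold between KO and WT in either cell type. For KO PC against WT PC, 0 of 23 members were called by edgeR, where 0.0% of 11754 genes were, and 0 passed at an unadjusted p under 0.05, against 3.22%. DESeq2 called 0 as well. The log2 fold changes ranged from -0.90 (SE 0.70) for mt-Tn to 1.09 (SE 0.65) for mt-Tm, and every adjusted p was at least 0.993. The median over members was -0.10, against -0.00 over all genes, with 8 of 23 above 0. In this comparison the Purkinje marker sum was lower in KO PC 1 and KO PC 2 than in any WT PC library, and the part of that in the values was not tested.

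For KO VM against WT VM, 0 of 21 members were called by edgeR, against 0.0373% of 10737 genes, and DESeq2 called 0. At an unadjusted p under 0.05, 3 heavy-strand tRNAs were higher, against 5.12% of all genes in both directions. Of these 550 genes 201 were higher, so that share overstates the matching background. mt-Tl1, which lies between mt-Rnr2 and mt-Nd1, had 90, 38 and 43 counts in WT VM and 145, 51 and 78 in KO VM, with a log2 fold change of 1.25 (SE 0.39, edgeR adjusted p = 0.794), which ran from 0.63 (without KO VM 1) to 1.81 (without WT VM 1) with 1 library left out. In PC it had 147, 11 and 80 in WT and 55, 69 and 85 in KO, with 0.82 (SE 0.48, edgeR adjusted p = 0.993). Per 1000000 mitochondrial counts KO VM 1 was highest at 11.4, and the genotypes overlapped in VM. In PC each KO library was above each WT library on this scale, while as normalized counts the genotypes overlapped in both cell types. mt-Tf, the first gene of the heavy-strand precursor, had 73, 53 and 63 counts in WT VM and 69, 51 and 73 in KO VM, with 0.58 (SE 0.24, edgeR adjusted p = 0.931). Its PC counts were 160, 15 and 68 in WT and 45, 59 and 70 in KO. mt-Tm, the tRNA that starts and extends mitochondrial proteins, had 29, 21 and 15 in WT VM and 26, 21 and 34 in KO VM, with 0.84 (SE 0.38, edgeR adjusted p = 0.931) and 0.55 without WT VM 3. In PC the log2 fold change of mt-Tm was 1.09 (SE 0.65, edgeR adjusted p = 0.993). Its normalized counts were higher in each KO PC than in each WT PC library. How many of all genes did the same was not counted. Over both cell types the log2 fold changes in KO over WT were 1.02 (SE 0.34) for mt-Tl1, 0.95 (SE 0.34) for mt-Tm and 0.53 (SE 0.25) for mt-Tf, all at an edgeR adjusted p of 0.922. There 0 members were called, against 0.0353% of genes, and 3 passed unadjusted, against 5.03%. Of the 569 genes that passed unadjusted, 188 were higher.

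Whether the genotype effect differed between PC and VM was tested as an interaction over all 12 libraries. By edgeR 0 of 23 members were called, against 0.0% of 11323 genes, and 0 passed at an unadjusted p under 0.05, against 2.9%, and DESeq2 also called 0. Every adjusted p was at least 0.999. The difference in log2 fold change (PC minus VM) was 0.17 (SE 0.36) for mt-Tp and -0.69 (SE 0.40) for mt-Nd6.

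The remaining tRNAs were at the limit of detection. mt-Tv, the valine tRNA between the rRNAs (chromosome M, 1025 to 1093), had at most 6 counts in a library and 27 in all. mt-Tr had at most 11 and mt-Tl2 at most 4. The tRNA genes mt-Ti, mt-Tw, mt-Ty, mt-Ts1, mt-Td, mt-Tk, mt-Tg, mt-Th and mt-Ts2 had 3 or fewer counts in every library. Of these, mt-Td, mt-Tk, mt-Tg and mt-Th had 0 counts in all 12, which allows up to 0.0839 to 0.244 per 1000000 mitochondrial counts by library. The tRNA genes are 59 to 75 bases long, little above the length of 1 read, and at these counts differences in these tRNAs were not detectable.

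The nuclear genes that copy, transcribe and process the mitochondrial genome showed no call in any comparison. The list held 46 genes, all matched, of which 43 were tested. At an unadjusted p under 0.05, 2 were lower in PC than VM in WT (Fastkd1 and Fastkd2), 4 in KO (Mterf3, Trmt10c, Hsd17b10 and Pnpt1) and 6 over both genotypes, none was higher, and none passed in KO against WT in either cell type. Over all genes and both directions 6.36%, 9.7% and 11.7% passed in these 3 comparisons. Most of those were higher in PC, 608 of 752 in WT, 766 of 1046 in KO and 987 of 1321 over both genotypes. The 2, 4 and 6 of 43 were all lower, so those percentages overstate the matching background, and enrichment was not tested. The median log2 fold change of the 43 genes in PC over VM was -0.28 in WT against -0.00 over all genes. It was -0.15 against 0.01 in KO and -0.21 against 0.02 over both genotypes. Of the 3 subunits of the mitochondrial RNase P that cuts the 5′ end of tRNAs, Trmt10c had -0.49 (SE 0.17, edgeR adjusted p = 0.189), Hsd17b10 -0.52 (SE 0.17, edgeR adjusted p = 0.154) and Prorp, the nuclease, 0.04 (SE 0.25, edgeR adjusted p = 0.971) over both genotypes. These genes were singled out after their values had been seen.

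Polrmt, the mitochondrial RNA polymerase, had 7 to 69 counts per library and a log2 fold change in PC over VM of -0.35 (SE 0.33, edgeR adjusted p = 0.760) over both genotypes. Tfam, which packages mitochondrial DNA and starts its transcription, had 107 to 486 counts and 0.17 (SE 0.29, edgeR adjusted p = 0.890). Lrpprc and Slirp, which together stabilize mitochondrial mRNAs, had 388 to 3295 and 33 to 156 counts, with -0.27 (SE 0.15, edgeR adjusted p = 0.522) and 0.45 (SE 0.46, edgeR adjusted p = 0.782). Ppargc1a, a coactivator of mitochondrial biogenesis, had 391 to 5028 counts and -0.24 (SE 0.22, edgeR adjusted p = 0.749). In KO over WT across both cell types these 5 had log2 fold changes from -0.53 (Tfam) to 0.33 (Polrmt), none past the threshold.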

How the data were processed

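RNA-seq counts of 12 libraries of sorted cells were used, 3 per group, grouped by the titles in the labels. Per the labels, the authors aligned 50-base read pairs to mm10 with STAR 2.5.0c, guided by the GRCm38.74 annotation, and deposited raw counts per gene from HTSeq 0.6.0. The strand setting and overlap mode of the counting are not given in the sources used here. HTSeq's unassigned classes stayed out of library sizes, with 0.393% to 2.94% of pairs in no gene. Pairs aligned to more than 1 place were in such a class and not in the gene counts.

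Symbols, types and positions came from GENCODE M21 (GRCm38), and 468 identifiers without an entry held 0.00659% of counts. Genes with a mean TMM-normalized count above 5 were tested by edgeR's quasi-likelihood test (version 4.0.16, R 4.3.3) in a fit of the groups compared, and p-values were adjusted over every gene in that fit (Benjamini-Hochberg). Single ratios were tested by exact permutation of the labels (scipy 1.17.1). Sums over members were not tested. Wilson intervals cover counting error only. The scripts were tested on simulated data. DESeq2 1.42.0, other scalings and filters, a replicate block and leaving out each library were tried. The 2 comparisons pooled over genotype or cell type, and the one without 3 libraries, were added after seeing the data. No source states that replicates came from separate animals, so p-values measure the spread between these samples. Replicates differed by at least 7.90 in chi-square over its degrees of freedom, so none was treated as a repeat.

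Members and lists were chosen with earlier results of these data known. Named were both rRNAs, all 13 mRNAs, the 5 tRNAs with the highest share of tRNA counts, mt-Tv, the tRNAs with 3 or fewer counts in every library, and Polrmt, Tfam, Lrpprc, Slirp and Ppargc1a. Other members were named after their values were seen.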

Additional observations from a re-analysis of the deposited data

Results flagged for a closer look

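Outside the gene counts, read pairs that aligned to more than 1 place, which the counting drops and to which genes with nuclear copies contribute, took 22.6% ± 1.02 of aligned pairs in KO VM (range 22.0% to 23.8%, n = 3) and 20.8% ± 0.991 in WT VM (range 19.9% to 21.8%, n = 3). The VM genotypes did not overlap. In PC they did, at 23.2% ± 0.455 in KO and 22.9% ± 1.38 in WT. How many of these pairs came from mitochondrial genes cannot be read from the counts, and the difference was not tested.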

How the results depend on the processing

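Counts of mitochondrial genes called moved with the filter, the tool and single libraries. Without a filter on low counts, 3 of 31 members were called for WT PC against WT VM, among 297 of 21916 genes. For KO VM against WT VM it was 1 of 29, among 47 of 20626 genes. Over both genotypes, PC against VM gave 7 of 33, among 592 of 23366 genes. Over both cell types, KO against WT gave 1 of 33, among 130 of 23366 genes. DESeq2 called 1 of 23 for WT PC against WT VM, among 115 of 11788 genes. Leaving out 1 library gave 0 to 3 for WT PC against WT VM, the 3 without WT PC 2, among 108 of 12139 genes. It gave 1 to 2 for KO PC against KO VM, where 19 to 150 genes were called. For PC against VM over both genotypes it gave 2 to 3, where 69 to 404 genes were called. In the genotype comparisons it gave 0. Without WT PC 2, KO PC 1 and KO PC 2 together, 6 of 24 were called, among 332 of 11555 genes. mt-Tp was called in KO and over both genotypes in every alternative run. Scaling to the mitochondrial mRNAs shifted the median log2 fold change of all genes to 0.16 for KO PC against KO VM, 0.11 for PC against VM over both genotypes, -0.12 for KO VM against WT VM and 0.13 for the interaction. Of all read pairs, the mitochondrial share differed by -10.8 percentage points for WT PC against WT VM, 9.25 for KO PC against WT PC and -1.17 for KO VM against WT VM, and WT PC 2 has the unaligned pairs named above. For KO VM against WT VM it differed by 1.63 without the rRNAs and 1.56 for mRNAs over protein-coding counts. For WT PC against WT VM it was 1.46 without the rRNAs and 1.66 for mRNAs over protein-coding counts, against -0.0071 of gene counts. Otherwise the causes were not tested. Leaving out 1 library, the log2 difference in the mt-Rnr2 to mt-Rnr1 ratio ran from -0.0561 to 0.224 for WT PC against WT VM, -0.167 to 0.0621 for KO PC against KO VM, -0.204 to 0.0512 for KO VM against WT VM and -0.0573 to 0.0828 for PC against VM within genotype, and that in the mt-Nd6 share from -0.0424 to 0.0747 for KO VM against WT VM, so these changed sign, as did the 4 differences in the mitochondrial share of gene counts.

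The labels do not say that a replicate number marks a shared animal or day, and not every same-numbered pair correlated at over 0.1. Over 8080 genes, same-numbered WT PC and WT VM libraries correlated at 0.197, 0.077 and 0.143 and KO PC and KO VM libraries at -0.023, 0.114 and 0.009. In WT each library correlated best with its own number, against -0.160 to 0.017 for the other pairs, a hint from the data and not from the design, and in KO not every library did. Sample titles number the WT libraries 1, 2 and 3 and their source names 1, 3 and 4, and the block used the title numbers, also across genotypes. With the replicate number as a block, 0 members were called for WT PC against WT VM (4 of 11822 genes) and 2 for KO PC against KO VM (121 of 10779). For PC against VM over both genotypes 2 were called (126 of 11323 genes), and mt-Tn had an edgeR adjusted p of 0.0583. In the genotype comparisons 0 members were called. The blocked exact permutation p for mt-Nd6 in PC against VM was 0.0625.

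Low counts limit the tRNAs most: 14 of 22 were not tested, and mt-Tn and mt-Tc rest on under 12 counts in every VM library. What made these counts low was not tested.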
